A study of Mus musculus with 6 samples.

Results

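The genes described here encode fibroblast growth factors (FGFs) and their receptors in the tail of the mouse embryo. The set was defined by symbol: the ligands Fgf3, Fgf4, Fgf8, Fgf15, Fgf17 and Fgf18, the receptors Fgfr1, Fgfr2 and Fgfr3, and the adaptor Frs2. Every non-control probe set that the array annotation assigns to exactly 1 of these 10 symbols was taken, which gave 17 of 22626 probe sets. These read 9 of the 10 genes (of 12393 genes named on the array), with 11 probe sets for 6 ligands and 6 probe sets for 3 receptors. No probe set carries the symbol Frs2, so that adaptor is not analysed here.

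RNA came from C57BL/6 embryos at 9.5 days post coitum that were either homozygous for the Dll3 neo allele (Dll3-tm1Rbe, written Dll3neo/neo) or wild-type. Each genotype was measured in 3 biological replicate pools on Affymetrix MOE430A arrays, 1 array a pool, and how many embryos went into a pool is not stated. The allele is carried by every cell of the embryo, and no treatment was given. The tissue was everything behind the newest somite, with the allantois removed, so it held all 3 germ layers and not the presomitic mesoderm alone. In such bulk tissue fewer cells of a type and less RNA per cell cannot be told apart.

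FGFs are secreted proteins that bind receptor tyrosine kinases together with heparan sulphate and signal through the docking protein FRS2 to RAS and ERK. In the vertebrate tail bud, FGF transcripts are made at the posterior end and decay as cells move forward, which leaves a gradient along the presomitic mesoderm. High FGF activity keeps the posterior cells undifferentiated, and the level at which it falls away is known as the determination front, where the segmentation clock is read out into somites. Dll3 encodes a divergent Notch ligand of that clock.

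Each value below is the deposited linear ratio, the signal of a probe set in a pool divided by its median across the arrays. It compares pools for a given probe set and says nothing about how strongly a gene was expressed, so the 17 probe sets cannot be ranked by level and the tissue label cannot be checked by the presence of its markers. All 17 had a median of 1 within 0.0011, so none was among the 1640 probe sets (7.25%) with a median below 1, where the submitters appear to have divided by a floor instead. Dll3 itself had ratios of 0.480, 0.476 and 0.537 in Dll3neo/neo pools 1, 2 and 3, against 1.463, 1.633 and 2.007 in wild-type pools 1, 2 and 3. It was the 1 probe set of all 22626 that passed the test, with a limma adjusted p of 0.00691.

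None of the FGF ligand or receptor probe sets passed the test between genotypes. The limma adjusted p over all probe sets was 0.9999 for each of the 17, where 1 probe set (0.00442%) passed in all. None reached an unadjusted p under 0.05, which 262 (1.16%) of all probe sets did, and the lowest unadjusted limma p of a member was 0.120. That share lies below 0.05 itself, so a lack of small p-values was common to the whole array. Without wild-type pool 2, wild-type pool 3 or Dll3neo/neo pool 3, 1 member reached it, where 216, 718 and 352 of all probe sets did. No member did without any other single pool. The log2 differences, Dll3neo/neo minus wild-type, ran from -0.30 for Fgf17 to 0.16 for Fgf4, with a median of 0.062 against -0.0021 over all probe sets. By sign 6 of the 17 were lower and 11 higher in Dll3neo/neo, where 50.9% of all probe sets were lower. These counts were 8 lower and 9 higher without wild-type pool 3 or without Dll3neo/neo pool 1, and the median was between 0.032 and 0.051 as each pool was left out. The median size of the difference, regardless of sign, was 0.12 for the 17 and 0.073 for all probe sets.

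The intervals around these differences show what size of difference in the deposited ratio the 6 arrays leave room for. They bound that ratio alone, since absolute level is unknown. For 15 of the 17 probe sets the 95% interval from limma, unadjusted for the number of probe sets, lay wholly within 1.5-fold in either direction. All 17 lay within 2-fold. Of all 22626 probe sets, 20644 lay within 1.5-fold and 22462 within 2-fold, so narrow intervals were common to the whole array. The 2 members that reached beyond 1.5-fold were both probe sets of Fgf17, on the side of lower values in Dll3neo/neo.

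**Figure D1:**
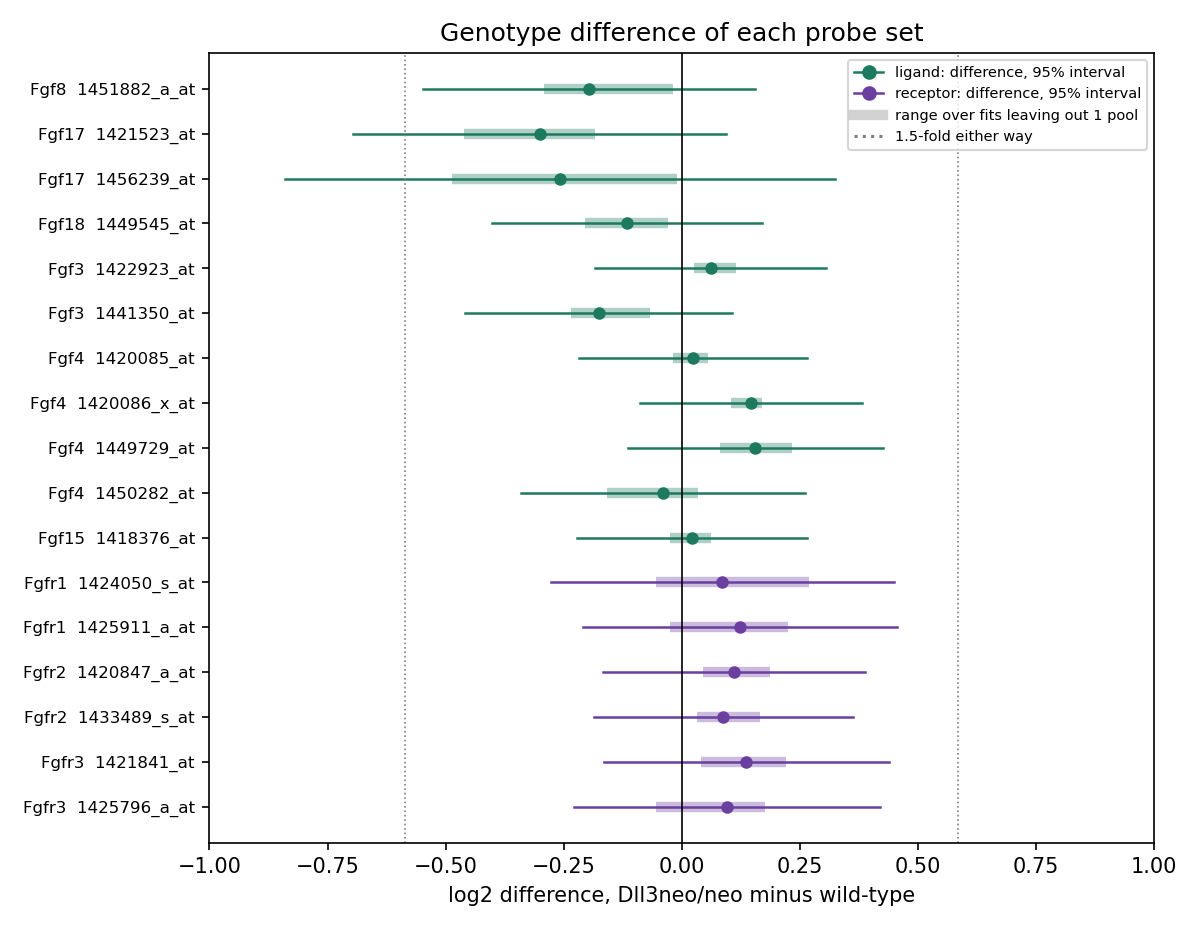
The log2 difference (x axis, Dll3neo/neo minus wild-type) is shown for each of the 17 probe sets (y axis), with ligands in green and receptors in purple. Points are limma estimates from 3 against 3 pools, thin lines 95% intervals, thick bands the range over the 6 fits that leave out 1 pool, and dotted lines 1.5-fold. Every interval crosses 0, and the intervals of the 2 Fgf17 probe sets pass the 1.5-fold line.

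Fgf8 encodes the ligand best known for the posterior gradient, and its single probe set differed through 1 pool. Its ratio was 0.964, 0.955 and 1.045 in Dll3neo/neo pools 1, 2 and 3, against 0.993, 1.007 and 1.448 in wild-type pools 1, 2 and 3. Wild-type pool 3 stood above the rest, and the other 5 pools lay between 0.955 and 1.045. The mean was 0.988 ± 0.0496 in Dll3neo/neo and 1.15 ± 0.259 in the wild type (SD, n = 3 each). The log2 difference was -0.20 (SE 0.16, 95% interval -0.55 to 0.15, limma adjusted p = 0.9999), and it was -0.019 without wild-type pool 3. The groups overlapped.

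Fgf17, a close relative of Fgf8 in sequence, gave the largest differences of the 17 in its 2 probe sets, which read different GenBank entries. Probe set 1421523_at had ratios of 0.771, 0.877 and 1.105 in Dll3neo/neo, against 1.244, 0.895 and 1.253 in the wild type. The log2 difference was -0.30 (SE 0.18, 95% interval -0.70 to 0.095, limma adjusted p = 0.9999). Wild-type pools 1 and 3 were its highest values and wild-type pool 2 lay among the Dll3neo/neo pools, so the groups overlapped. Its difference was -0.46 without wild-type pool 2 and -0.18 without Dll3neo/neo pool 1.

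Probe set 1456239_at of Fgf17 spread more widely, at 0.675, 0.974 and 1.307 in Dll3neo/neo, against 1.026, 0.909 and 1.575 in the wild type. In both Fgf17 probe sets Dll3neo/neo pool 1 was the lowest value and wild-type pool 3 the highest, and pool 3 was the highest of the Dll3neo/neo pools. The highest value of 1456239_at was 2.33 times the lowest, and 298 of the 22626 probe sets had a wider range. Its log2 difference of -0.26 (95% interval -0.84 to 0.33) nearly vanished without Dll3neo/neo pool 1 (-0.011) or wild-type pool 3 (-0.023). The spread within genotypes was thus larger than the difference between them. The 2 probe sets averaged gave -0.28 (limma adjusted p = 0.9999).

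Fgf18, the third gene of the Fgf8 subfamily, had ratios of 0.839, 1.069 and 0.943 in Dll3neo/neo, against 0.939, 1.057 and 1.084 in the wild type. It shared with both Fgf17 probe sets its lowest pool, Dll3neo/neo pool 1, and its highest, wild-type pool 3. Fgf3 1441350_at, outside that subfamily, shared both as well, and the lowest pool of Fgf8 was Dll3neo/neo pool 2. Wild-type pool 3 was the highest in 7689 of all 22626 probe sets. The Fgf18 difference was -0.12 on the log2 scale (95% interval -0.40 to 0.17), and it was -0.029 without Dll3neo/neo pool 1. All 4 probe sets of Fgf8, Fgf17 and Fgf18 were lower in Dll3neo/neo by sign, and they kept that sign without each pool in turn. With limma array weights both Fgf17 probe sets turned to higher (0.022 and 0.085).

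**Figure D2:**
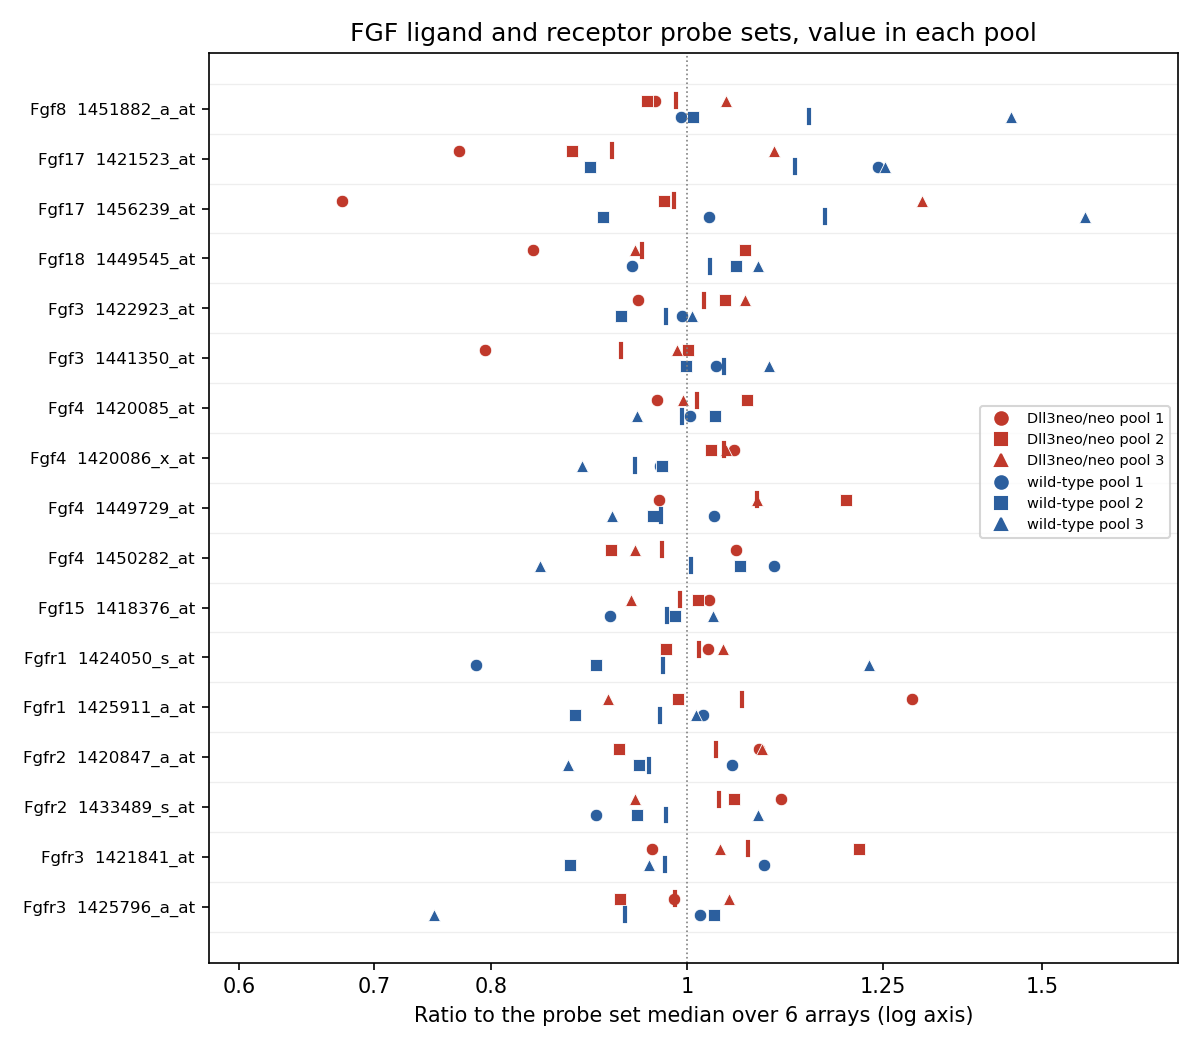
The deposited ratio of each of the 17 probe sets (y axis) is plotted on a log axis (x axis) for the 6 pools. Red symbols are Dll3neo/neo pools, blue symbols wild-type pools, the symbol shape gives the pool number and vertical bars are genotype means (n = 3). Wild-type pool 3 of Fgf8, at 1.448, stands apart, and the genotypes are separate in 1 row, Fgf4 1420086_x_at.

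Other genes of the posterior tail were read in the same pools. A marker list of 16 genes of the tail bud and posterior presomitic mesoderm, such as Tbx6, Msgn1, Cdx2 and Wnt3a, had 14 genes on the array, read by 18 probe sets. The median log2 ratio of these 18 was -0.13, -0.20 and 0.073 in Dll3neo/neo pools 1, 2 and 3, against 0.11, -0.079 and 0.26 in wild-type pools 1, 2 and 3. The lowest wild-type pool lay below the highest Dll3neo/neo pool, and wild-type pool 3, where Fgf8 was high, had the highest median. By sign 16 of the 18 were lower in Dll3neo/neo, where 50.9% of all probe sets were. As each pool was left out, between 16 and 18 of the 18 were lower. The median difference was -0.33, and it was -0.16 without wild-type pool 3 and -0.15 without Dll3neo/neo pool 2. The markers' part in the values of Fgf8, Fgf17 and Fgf18 was not tested.

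Individual markers did not all follow wild-type pool 3. Cdx4, a caudal homeobox gene of the tail, stood at 1.724 there, and Cyp26a1, which breaks down retinoic acid in the tail bud, at 1.644. The highest ratio of Msgn1, a transcription factor gene of the presomitic mesoderm, was in wild-type pool 1 (1.261), not in pool 3. Tbx6 and Hes7, both lower in Dll3neo/neo, gave the 2 of 18 probe sets without overlap between genotypes, where 5.03% of all probe sets had none (1.99% lower in Dll3neo/neo).

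**Figure D3:**
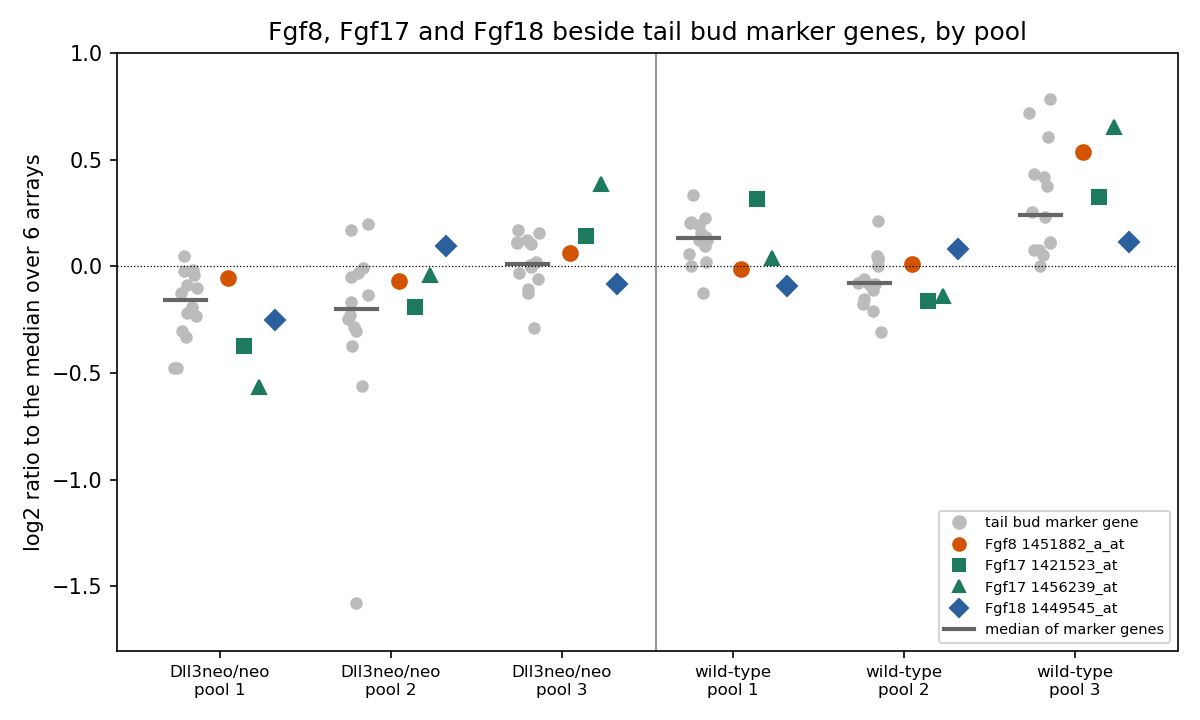
The log2 ratio to the median over 6 arrays (y axis) is plotted by pool (x axis, Dll3neo/neo left, wild-type right) for Fgf8, 2 probe sets of Fgf17 and Fgf18 in colour. Grey points are 14 tail bud marker genes, each the mean of its probe sets, and grey bars their medians. The gene medians are -0.16, -0.20 and 0.013 in Dll3neo/neo pools and 0.13, -0.079 and 0.24 in wild-type pools, and Fgf8 stands high in wild-type pool 3 alone.

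Fgf3 and Fgf4 are neighbouring genes in the mouse genome, with Fgf15 close by, separated from Fgf4 by a single predicted gene in the RefSeq annotation. Mouse Fgf3 is needed for normal growth of the tail, and Fgf4 acts together with Fgf8 in the presomitic mesoderm of the mouse. The 2 probe sets of Fgf3 pointed in opposite directions. Probe set 1422923_at had 0.946, 1.044 and 1.068 in Dll3neo/neo, against 0.994, 0.928 and 1.006 in the wild type, a log2 difference of 0.062 (95% interval -0.18 to 0.31). Probe set 1441350_at had 0.794, 1.001 and 0.989 in Dll3neo/neo, against 1.034, 0.999 and 1.098 in the wild type, a log2 difference of -0.18 (95% interval -0.46 to 0.11). That value rested in large part on Dll3neo/neo pool 1, without which it was -0.068, and in neither probe set were the genotypes apart.

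Fgf4 was read by 4 probe sets, of which 3 derive from the same GenBank entry. One of those 3, 1420086_x_at, was the 1 probe set of the 17 without overlap, with 1.055, 1.028 and 1.046 in Dll3neo/neo against 0.970, 0.972 and 0.887 in the wild type. A share of 1 in 17 is 5.88%, and 5.03% of all probe sets had no overlap between genotypes (3.05% higher and 1.99% lower in Dll3neo/neo). The log2 difference was 0.15 (SE 0.10, 95% interval -0.088 to 0.38, limma adjusted p = 0.9999), and without each pool in turn it lay between 0.10 and 0.17. The suffix _x marks probes that can also bind other transcripts.

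The remaining Fgf4 probe sets did not repeat that separation. From the same entry, 1449729_at had 0.969, 1.199 and 1.083 in Dll3neo/neo, against 1.031, 0.962 and 0.918 in the wild type, a log2 difference of 0.16 that was 0.080 without Dll3neo/neo pool 2. The other probe set of that entry, 1420085_at, differed by 0.024 and ranged from 0.945 to 1.071 over the 6 pools. The probe set from the curated transcript, 1450282_at, had 1.058, 0.917 and 0.942 in Dll3neo/neo, against 1.104, 1.063 and 0.846 in the wild type. Its difference was -0.040, opposite in sign to the other 3, and was 0.033 without wild-type pool 1. Wild-type pool 3, the highest pool for Fgf8, was the lowest of the 6 in all 4 Fgf4 probe sets.

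Fgf15, the mouse counterpart of human FGF19 and a gene of the developing neural tube, varied least of the 17. Its ratios were 1.025, 1.013 and 0.938 in Dll3neo/neo, against 0.916, 0.987 and 1.030 in the wild type. The highest was 1.12 times the lowest, a narrower range than that of 21625 of the 22626 probe sets. The log2 difference was 0.022 (95% interval -0.22 to 0.27), and it took either sign as single pools were left out (-0.025 to 0.061). Neural tube markers, 21 probe sets of 12 genes, had median log2 ratios of 0.021, 0.019 and -0.010 in Dll3neo/neo pools and -0.019, -0.0014 and -0.068 in wild-type pools. By sign 10 of the 21 were lower and 11 higher, and 2 had no overlap, both higher in Dll3neo/neo (3.05% of all probe sets): Zic1 (log2 difference 0.32) and Olig2 (0.16).

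The receptors were all higher in Dll3neo/neo by sign, by small amounts and with overlapping pools. The 6 probe sets differed by 0.086 to 0.14 on the log2 scale, with a median of 0.10, and each 95% interval included 0. None passed the test, and the count of 6 higher was 5 when wild-type pool 1, wild-type pool 3 or Dll3neo/neo pool 1 was left out, and 5 with array weights. The 6 read 3 genes in pairs, so they are not 6 separate observations. The pool medians of the 6 were 0.077, -0.025 and 0.057 in Dll3neo/neo pools 1, 2 and 3, against 0.024, -0.12 and -0.024 in wild-type pools 1, 2 and 3. Markers of some other tissues were mostly higher in Dll3neo/neo by sign as well, and their part in the receptor values was not tested. Gut and yolk sac endoderm had 16 of 21 probe sets higher, and 12 of 21 without Dll3neo/neo pool 1. With all pools 3 had no overlap (Amn, Sox17 and Apoa1), all higher in Dll3neo/neo, as were 3.05% of all probe sets. The mean ratios were 1.14, 0.938 and 0.936 in Dll3neo/neo pools 1, 2 and 3, and 0.877 to 0.938 in wild-type pools. Of these 21 probe sets 5 had a median below 1, as did 7.25% of all. Their means thus mix ratios to a median with ratios to what appears to be a floor. Lateral plate and limb had 13 of 18 higher, and 10 of 18 without wild-type pool 1 or without wild-type pool 3. Their mean ratios were 0.988 to 1.06 in Dll3neo/neo pools and 0.935 to 1.06 in wild-type pools. Endothelium and blood had 9 of 12 higher, 5 of 12 without Dll3neo/neo pool 1, and 1 without overlap, Tie1, to be read against the same 3.05%. The mean ratios were 0.982 to 1.09 in Dll3neo/neo pools and 0.936 to 1.01 in wild-type pools. Somite markers had 8 of 13 higher and surface ectoderm markers 9 of 18, with none without overlap. Of the 13 somite probe sets 2 had a median below 1.

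Fgfr1 encodes the main FGF receptor of the presomitic mesoderm. Probe set 1424050_s_at had 1.024, 0.976 and 1.042 in Dll3neo/neo, against 0.786, 0.901 and 1.231 in the wild type. The Dll3neo/neo pools lay close together and inside the wild-type range, whose pools 1 and 3 were the lowest and highest of all. The difference of 0.086 was 0.27 with wild-type pool 3 left out and -0.055 with wild-type pool 1 left out, so single wild-type pools set its size and sign. Probe set 1425911_a_at had 1.292, 0.990 and 0.914 in Dll3neo/neo, against 1.019, 0.880 and 1.010 in the wild type, and its difference of 0.12 was -0.024 without Dll3neo/neo pool 1.

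Dll3neo/neo pool 1 also carried heart muscle transcripts. The mean ratio of 13 probe sets of 10 heart muscle genes, such as Myh6 and Nppa, was 9.07 there and 0.947 to 0.950 in the other Dll3neo/neo pools, against 0.840 to 0.914 in wild-type pools. Of these 13 probe sets 3 had a median below 1, so these means also mix ratios to a median with ratios to what appears to be a floor. Dll3neo/neo pool 1 held the highest values of Fgfr1 1425911_a_at, Fgfr2 1433489_s_at and Fgf4 1420086_x_at and the lowest values of both Fgf17 probe sets, Fgf18 and Fgf3 1441350_at. It was thus an extreme in 7 of the 17 (41.2%), and in 29.3% of all probe sets. The part of the heart transcripts in these values was not tested.

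Fgfr2 encodes a receptor known from limb and epithelial development. Probe set 1420847_a_at had 1.086, 0.925 and 1.089 in Dll3neo/neo, against 1.053, 0.947 and 0.873 in the wild type. Probe set 1433489_s_at had 1.113, 1.055 and 0.943 in Dll3neo/neo, against 0.901, 0.945 and 1.084 in the wild type. The genotypes overlapped in both, and the pools did not rank alike: wild-type pool 3 was the lowest of 6 in the first and the second highest in the second. Averaged, they differed by 0.099 on the log2 scale (95% interval -0.14 to 0.33, limma adjusted p = 0.9999).

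Fgfr3 encodes a receptor best known as a brake on cartilage growth. Probe set 1421841_at had 0.961, 1.217 and 1.039 in Dll3neo/neo, against 1.092, 0.875 and 0.958 in the wild type, a log2 difference of 0.14 that was 0.041 without Dll3neo/neo pool 2. Probe set 1425796_a_at had 0.985, 0.926 and 1.049 in Dll3neo/neo, against 1.015, 1.031 and 0.749 in the wild type. Its difference of 0.096 came with the low value of wild-type pool 3 and was -0.054 without it. The 2 probe sets averaged gave 0.12 (95% interval -0.15 to 0.38).

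Wild-type pool 3 was thus an extreme for most ligand probe sets, in both directions. It was the single highest or single lowest of the 6 pools in 10 of the 11 ligand probe sets (6 highest, 4 lowest) and in 3 of the 6 receptor probe sets. The 4 ligand probe sets lowest there were all of Fgf4, and 3 of them derive from the same GenBank entry, so they are not 4 separate observations. Over all 22626 probe sets it was an extreme in 63.3%, and over the 17 in 76.5%.

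The pools were also compared gene by gene for likeness to Fgf8 and Fgfr1, over 20363 probe sets with a single symbol. The 5 genes most like Fgf8 across the 6 pools were Canx, Rpl11, Cand1, Acsl6 and Ints14, with Pearson correlations of log2 ratios from 0.995 to 0.998. Each had its highest ratio in wild-type pool 3, from 1.193 for Rpl11, a ribosomal protein gene, to 1.516 for Acsl6, a fatty acid ligase gene. A correlation above 0.9 with Fgf8 was shared by 796 probe sets. For Fgfr1, averaged over its 2 probe sets, the 5 closest were Mycbp, Omt2a, Atg2b, Septin6 and Rbm4b (0.982 to 0.993), and 117 probe sets were above 0.9. The 2 Fgfr1 probe sets were highest in different pools, 1424050_s_at in wild-type pool 3 and 1425911_a_at in Dll3neo/neo pool 1. Likeness to their average is thus not likeness to either alone. Mycbp and Omt2a had all 6 ratios below 1 (0.638 to 0.683 and 0.662 to 0.837), so their medians lie below 1. These correlations come from 6 points and are given without a test.

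Other genes of the pathway were counted from 5 lists, in all of which 0 probe sets passed the limma test at an adjusted p under 0.05. Those below that had no overlap between genotypes are to be read against the 5.03% of all probe sets. The 16 ligands outside the set, all on the array with 21 probe sets, had 13 lower and 8 higher by sign, 5 lower and 16 higher without wild-type pool 1, and 1 without overlap. That was Fgf13, an intracellular member of the family, at 0.964, 0.954 and 0.813 in Dll3neo/neo against 1.036, 1.046 and 1.356 in the wild type. Its log2 difference was -0.32 and that of its other probe set was -0.01. Next in size were Fgf12 (0.18) and Fgf11 (0.11, with its other probe set at -0.061), which are also intracellular members.

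Receptors and co-receptors outside the set, 33 probe sets of 13 genes, had 18 lower and 15 higher and none without overlap. Largest in size were Sdc1, a heparan sulphate proteoglycan gene (-0.26, with its 3 other probe sets at -0.02, 0.02 and -0.12), the adhesion gene Ncam1 (0.23) and Cdh2 (-0.19). The 5 other probe sets of Ncam1 gave 0.19, 0.0099, -0.081, -0.12 and -0.13, and the other of Cdh2 gave 0.015. Heparan sulphate synthesis genes, 22 probe sets of 14 of 17 listed genes, had 13 lower and 9 higher and 1 without overlap, that of Xylt2 (-0.079). These counts were 9 lower and 13 higher without Dll3neo/neo pool 2, and likewise without wild-type pool 3. Extl3 (-0.16), Sulf2 (-0.14) and Hs2st1 (-0.14) had the largest sizes. The other probe set of Extl3 gave -0.011, and those of Hs2st1 gave 0.013 and -0.015.

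Adaptors and the RAS to ERK cascade, 45 probe sets of 21 of 26 listed genes, had 29 lower and 16 higher by sign, a median of -0.043 and 5 without overlap. The median was -0.0042 without Dll3neo/neo pool 2, -0.023 without wild-type pool 3, where 23 were lower and 22 higher, and between -0.082 and -0.066 without any other single pool. Of the 5 without overlap, Grb2 (0.17), the adaptor that links FRS2 to RAS activation, and Akt1 (0.15) were higher, and Braf (-0.20), Ptpn11 (-0.26) and Cbl (-0.39) were lower in Dll3neo/neo. Cbl, a ubiquitin ligase of activated receptor kinases, had 0.922, 0.802 and 0.928 in Dll3neo/neo, against 1.342, 1.073 and 1.072 in the wild type. Its other probe set gave -0.31. Ptpn11 encodes the phosphatase SHP2, which acts downstream of FRS2, and its other 2 probe sets gave -0.10 and -0.04. The largest size in this list was that of Shc1 (-0.45), an adaptor gene, through a ratio of 0.543 in Dll3neo/neo pool 2, and its other probe set gave -0.01.

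Feedback inhibitors and targets, which report FGF activity in many tissues, had 21 probe sets of 13 of 16 listed genes. By sign 14 were lower and 7 higher, with a median of -0.025 and pool medians of -0.028, -0.0087 and 0.019 in Dll3neo/neo, against 0.0058, -0.023 and 0.19 in the wild type. Wild-type pool 3 was again the highest. The median moved with single pools, to -0.0040 without Dll3neo/neo pool 2, -0.084 without Dll3neo/neo pool 3, -0.085 without wild-type pool 1 and -0.092 without wild-type pool 2. The counts were 11 lower and 10 higher without Dll3neo/neo pool 1 or 2. The 1 probe set without overlap was that of Spry4, a feedback inhibitor of receptor signalling, at 0.873, 0.939 and 0.968 in Dll3neo/neo against 1.082, 1.032 and 1.155 in the wild type. Its log2 difference was -0.23, and its other probe set gave -0.18. Egr1, an immediate early target of ERK, had 0.25, and Spred1, an inhibitor of RAS activation, had -0.24, with its other probe sets at -0.01 and -0.21.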

How the data were processed

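Per the labels, RNA of 3 Dll3neo/neo and 3 wild-type pools was hybridised to 6 arrays. The authors deposited linear ratios, in which each probe set appears, from the values, to be divided by its median across arrays. The submitters' processing notes name RMA and MAS5 with neither role nor order, so background, normalization between arrays and absolute level are unknown. The number of arrays limits the precision. The 64 control probe sets were left out.

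Genotypes were compared on log2 of the ratio, with no offset, in 1 fit of limma 3.58.1 (R 4.3.3) across 22626 probe sets, with moderated two-sided tests. The model held genotype alone, p-values were adjusted by Benjamini-Hochberg and 0.05 was the threshold. Differences are Dll3neo/neo minus wild-type. An exact permutation test of 3 against 3 pools cannot go below 0.10 and was not used. The fit was also tested on simulated data.

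The members and lists were chosen with earlier results of these data known. Members are all described. Of each of 5 pathway lists the 3 genes of largest size are named, and genes without overlap and the tail bud genes named singly were added after their values were seen. The 5 genes most like Fgf8 and Fgfr1 are named. All 8 tissue lists are described. Symbols were updated through RefSeq (GRCm38.p6), in which 20351 of 20380 single symbols matched, and neighbouring genes come from that annotation. Alternatives were another scale, 2 normalizations, a filter on medians below 1, array weights, the replicate number as a block, averaged probe sets and leaving out each pool. Plots used matplotlib 3.10.9.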

Additional observations from a re-analysis of the deposited data

How the results depend on the processing

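No member passed the limma test under any alternative, and the lowest adjusted p of a member was 0.180 (Fgfr3 1421841_at, array weights). Those weights rest on wild-type pool 2 (83.9, with the other arrays between 0.137 and 0.756) and their estimation did not converge. With them 3 members had an unadjusted limma p under 0.05, as did 3641 of all 22626 probe sets. The count of all probe sets past the threshold was 1, and it was 2 with quantile normalization and 4 with array weights. It was 1 without wild-type pool 1 or 3, and 0 without wild-type pool 2 or any single Dll3neo/neo pool. Where 0 passed, Dll3 did not pass either, so those fits tell little about the members.

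Signs turned with array weights for Fgf17 1421523_at (0.022) and 1456239_at (0.085), Fgf4 1420085_at (-0.022) and Fgfr3 1425796_a_at (-0.072), and with quantile normalization for Fgf4 1420085_at (-0.0037). Without each pool in turn 11 of the 17 kept their sign. The other 6 ranged from -0.025 to 0.061 for Fgf15, -0.018 to 0.056 for Fgf4 1420085_at, -0.16 to 0.033 for Fgf4 1450282_at, -0.055 to 0.27 for Fgfr1 1424050_s_at, -0.024 to 0.23 for Fgfr1 1425911_a_at and -0.054 to 0.18 for Fgfr3 1425796_a_at. The cause was not tested. Adding 1 to the ratio turned no sign. Centring moved every difference by the same small amount, from 0.022 to 0.018 for Fgf15, the smallest, so it could turn none. The filter on medians could turn none either, as no member had a median below 1 and the differences stayed the same. Averaged probe sets gave -0.057 for Fgf3 and 0.072 for Fgf4, opposite in sign to Fgf3 1422923_at (0.062) and Fgf4 1450282_at (-0.040).

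The labels do not say that replicate numbers pair the pools. Same-numbered pools deviated from their genotype means with correlations of 0.21, 0.02 and 0.17 over all probe sets, and Dll3neo/neo pool 2 was closest to wild-type pool 3 (0.05). With the replicate number as a block 1 probe set passed, as without it, and 0 members did.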
